A study of Mus musculus with 1 sample.

Results

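Granulocytes and monocytes arise from a common progenitor in the bone marrow (BM), and a small set of transcription factors directs the choice between them and the maturation that follows. PU.1 and C/EBPα open the myeloid program, MYB keeps progenitors dividing, and GFI1 represses monocyte genes in cells that become granulocytes. C/EBPε and C/EBPδ act later, when granule proteins are made, while IRF8 and KLF4 direct monocyte formation. The genes of these factors were listed by name and not ranked by measured level, although earlier results of these data were known when they were chosen. Of 10 listed symbols, 9 were matched to genes of the GENCODE M21 annotation and are described here, out of 54532 genes in the data. The remaining symbol, *Gfi1b-as*, had no entry under that name in the annotation, so no value is given for it.

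The data are 1 RNA-seq library of sorted c-kit+ BM cells from C57BL/6 mice of the Ctrl group, with the wild-type genotype and no treatment named. The gate named in the labels is Lin- c-Kit+ Sca1-, and the labels give neither the age nor the number of the mice. The study set these cells beside c-kit+ BM cells of *Gadd45g*-deficient mice with MPN (myeloproliferative neoplasm), which were not analysed here, so no fold change between groups is given. Levels are in FPKM, fragments per kilobase of gene length scaled to the size of the library. With no replicates, each level carries a 95% Wilson interval from the fragments recovered from the FPKM value, which covers counting error only. The spread between mice is not known, and a low level in many cells cannot be told apart from a high level in few cells.

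All 9 factors reached 1 FPKM, as did 22.2% of all genes and 46.8% of protein-coding genes. All 9 also reached 10 FPKM, against 21.2% of protein-coding genes. Their median was 38.1 FPKM, and all of them were above 8.66 FPKM, the median of the 10290 protein-coding genes at 1 FPKM or more. Levels ran from 15.9 FPKM for *Gfi1* to 190 FPKM for *Cebpb*, a 12.0-fold range. Recovered fragments ran from 800 for *Gfi1* to 5834 for *Spi1*, so the interval was widest, relative to the level, for *Gfi1*. Among 60 regulators, made up of the gene families of the 9 factors and 20 other myeloid regulators, *Cebpb* was at position 2, *Spi1* at 5 and *Cebpe* at 6, while *Myb* was at 31 and *Gfi1* at 33.

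**Figure D1:**
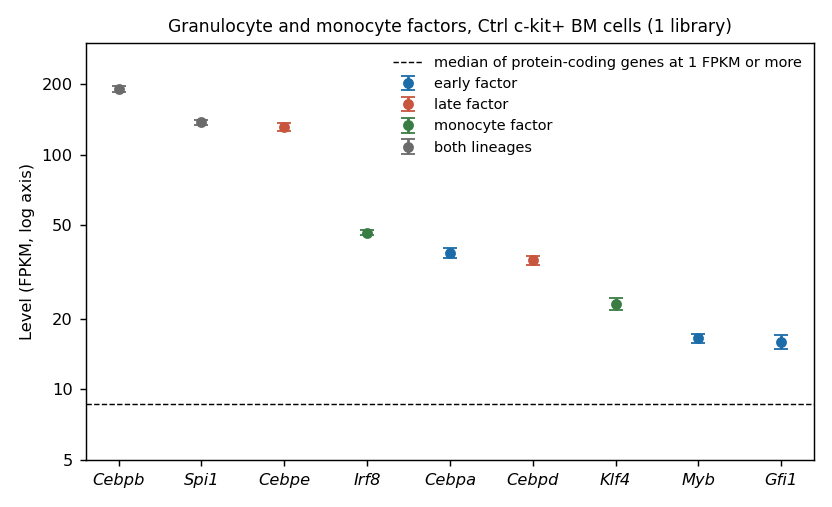
Level of each of the 9 factors in the Ctrl library (FPKM on a log axis, points) with its 95% Wilson interval of counting error (bars), coloured by role. *Cebpb*, *Spi1* and *Cebpe* lie at 131 FPKM or more, *Irf8*, *Cebpa* and *Cebpd* between 35.4 and 46.5 FPKM, and *Klf4*, *Myb* and *Gfi1* at 23.2 FPKM or less, and the dashed line marks 8.66 FPKM.

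*Cebpb* and *Spi1*, which serve both lineages, had the highest levels of the 9 in FPKM, although *Spi1* was not distinguishable from *Cebpe* by counting and *Irf8* had more fragments than *Cebpb*. *Cebpb* (ENSMUSG00000056501), whose product drives granulocyte formation under stress and is also used by monocytes, is a forward-strand gene of 1 exon at chr2:167688915-167690418 (GRCm38). It had 190 FPKM from 4516 fragments, with an interval of 185 to 196 FPKM. This placed it above 97.9% of the protein-coding genes at 1 FPKM or more. *Spi1* (ENSMUSG00000002111), which encodes PU.1, is a forward-strand gene at chr2:91082390-91115756. It had 137 FPKM from 5834 fragments (interval, 134 to 141). *Cebpb* was 1.39 times *Spi1*, with an exact 95% counting interval of 1.33 to 1.44 for the ratio. The 2 genes therefore differed beyond counting error, although in fragments alone *Spi1* had more.

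Of the early factors, which act in granulocyte-macrophage progenitors (GMP), *Cebpa* (ENSMUSG00000034957) was the highest. This gene, needed for GMP to form, has 1 exon, at chr7:35119293-35121928 (forward). It had 38.1 FPKM from 1587 fragments (interval, 36.3 to 40.1). *Myb* (ENSMUSG00000019982), at chr10:21124935-21160984 (reverse), had 16.5 FPKM from 2322 fragments (interval, 15.8 to 17.2). *Gfi1* (ENSMUSG00000029275), a zinc finger repressor gene at chr5:107716657-107726036 (reverse), had 15.9 FPKM from 800 fragments (interval, 14.8 to 17.0). In FPKM, *Myb* and *Gfi1* were not distinguishable by counting, with a ratio of 1.04 and an interval of 0.955 to 1.12. This depends on the use of all exon bases as the length, since *Myb* was above *Gfi1* per base of the longest transcript, at 39.8 against 17.7, and per base of coding sequence, at 65.0 against 34.5.

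The late factors also differed from each other in FPKM. *Cebpe* (ENSMUSG00000052435), whose product switches on the genes of secondary granules and is also used by eosinophils, has 2 exons, at chr14:54710360-54712174 (reverse). It had 131 FPKM from 2574 fragments (interval, 126 to 137). *Cebpd* (ENSMUSG00000071637), at chr16:15887286-15891031 (forward), had 35.4 FPKM from 2095 fragments (interval, 33.9 to 37.0). *Cebpe* was 3.71 times *Cebpd* (interval, 3.50 to 3.93). Per base of coding sequence the gap was much smaller, with 193 for *Cebpe* and 165 for *Cebpd*. In FPKM, *Cebpe* was level with *Spi1* within counting error, since *Spi1* was 1.04 times *Cebpe* with an interval of 0.996 to 1.09. Per base of the longest transcript *Spi1* was above *Cebpe*, at 182 against 131, and per base of coding sequence at 453 against 193.

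The monocyte factors stood at positions 4 and 7 of the 9 in FPKM. *Irf8* (ENSMUSG00000041515), which is needed for monocytes and dendritic cells and is also expressed by B cells, is at chr8:120736358-120756694 (forward). It had 46.5 FPKM from 5178 fragments (interval, 45.3 to 47.8), the highest of the 9 after *Cebpb*, *Spi1* and *Cebpe*. *Klf4* (ENSMUSG00000003032), which promotes monocyte differentiation, is at chr4:55527143-55532466 (reverse). It had 23.2 FPKM from 1116 fragments (interval, 21.9 to 24.6), which is above *Myb* by a factor of 1.41 (interval, 1.31 to 1.51). That order turned with the length, to 23.3 for *Klf4* and 39.8 for *Myb* per base of the longest transcript and to 48.8 and 65.0 per base of coding sequence. The full order by FPKM was *Cebpb*, *Spi1*, *Cebpe*, *Irf8*, *Cebpa*, *Cebpd*, *Klf4*, *Myb* and *Gfi1*. Of the 8 neighbouring pairs in it, only *Spi1* with *Cebpe* and *Myb* with *Gfi1* had a ratio whose counting interval included 1. *Cebpa* and *Cebpd* came close, at 1.08 with an interval of 1.01 to 1.15.

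Upstream sequences are shown for 4 of the 9 genes, the highest and the lowest of them (*Cebpb* and *Gfi1*) and an early granulocyte and a monocyte factor of similar level (*Cebpa* and *Irf8*). Each is the 250 bases before the RefSeq transcription start on GRCm38.p6, read 5′ to 3′ on the strand of the gene. The start used for *Gfi1* and for *Irf8* is the one farther upstream of the pair in the RefSeq table. The GENCODE gene of *Gfi1* begins farther upstream still, at base 107726036, so most of its window lies within the gene as annotated there. Capitals mark matches on either strand to CACCC (the core bound by KLF proteins), TATAAA (the TATA box) or TTGCNNAA (a C/EBP core). The windows are chr2:167688665-167688914 for *Cebpb*, chr5:107725806-107726055 for *Gfi1*, chr7:35119043-35119292 for *Cebpa* and chr8:120736108-120736357 for *Irf8*.
*Cebpb*: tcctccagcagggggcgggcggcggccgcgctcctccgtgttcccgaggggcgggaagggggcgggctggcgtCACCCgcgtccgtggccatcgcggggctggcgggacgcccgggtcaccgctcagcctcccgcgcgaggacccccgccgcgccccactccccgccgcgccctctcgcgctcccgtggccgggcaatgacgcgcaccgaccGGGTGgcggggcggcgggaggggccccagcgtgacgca
*Gfi1*: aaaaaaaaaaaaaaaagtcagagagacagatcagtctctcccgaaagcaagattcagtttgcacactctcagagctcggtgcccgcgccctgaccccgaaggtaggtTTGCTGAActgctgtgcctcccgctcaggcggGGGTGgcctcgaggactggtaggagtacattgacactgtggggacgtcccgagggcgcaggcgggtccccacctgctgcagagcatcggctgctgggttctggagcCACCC
*Cebpa*: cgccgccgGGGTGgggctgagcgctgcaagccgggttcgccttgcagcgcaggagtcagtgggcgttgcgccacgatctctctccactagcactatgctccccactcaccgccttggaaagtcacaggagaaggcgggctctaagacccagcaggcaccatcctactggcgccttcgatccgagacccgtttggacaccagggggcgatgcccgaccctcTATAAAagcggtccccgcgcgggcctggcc
*Irf8*: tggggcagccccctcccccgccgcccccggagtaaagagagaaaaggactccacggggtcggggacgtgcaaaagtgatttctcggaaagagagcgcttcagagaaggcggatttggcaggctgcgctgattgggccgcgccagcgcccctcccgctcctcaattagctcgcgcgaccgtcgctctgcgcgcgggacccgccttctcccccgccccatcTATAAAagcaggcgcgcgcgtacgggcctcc

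TATAAA stood at 30 bases before the start in *Cebpa* and at 31 in *Irf8*, and 12.4% of 32817 RefSeq promoter windows of this length hold it. *Gfi1* held TTGCNNAA at 143 bases before the start, as 9.57% of windows do. CACCC stood once in *Cebpa*, at 242 bases, and on 2 occasions each in *Cebpb*, at 177 and 38, and in *Gfi1*, at 111 and 5, but it is a short motif held by 52.0% of windows. GAGGAA, the core bound by PU.1, is held by 23.3% of windows, and no match to it was found in these 4 sequences. AANNGAAA, a core bound by IRF proteins, is held by 21.3%, and it was not found in them either. The window of the other *Gfi1* start, not shown, held AANNGAAA at 39 bases before that start. A match is a run of letters and not a measured binding site, and a missing match concerns these letters in this window only. The sequences were rich in G and C, with 81.6% in *Cebpb*, 67.2% in *Irf8*, 66.4% in *Cebpa* and 59.2% in *Gfi1*, against a median of 52.4% over all windows. Among the other factors, *Klf4* had 74.0% and *Myb* 81.2%. The promoters of *Spi1*, *Cebpd* and *Cebpe* were not analysed here.

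Late factors were then compared with early factors. The geometric mean of *Cebpe* and *Cebpd* was 68.2 FPKM and that of *Cebpa*, *Gfi1* and *Myb* was 21.5 FPKM. The late group was thus 3.17 times the early group, with a counting interval of 3.04 to 3.31. The ratio of early to late moved from 0.316 to 0.608 when *Cebpe* was left out. *Cebpe* was 8.26 times *Gfi1* (interval, 7.63 to 8.96), 7.98 times *Myb* (interval, 7.54 to 8.44) and 3.45 times *Cebpa* (interval, 3.23 to 3.67). *Cebpd* was 2.23 times *Gfi1* (interval, 2.05 to 2.42) and 2.15 times *Myb* (interval, 2.03 to 2.28). It was slightly below *Cebpa*, at 0.929 of its level (interval, 0.870 to 0.992). Late factors were therefore higher in 5 of the 6 pairs in FPKM. The ratio of *Cebpe* to *Myb* fell from 7.98 to 3.30 per base of the longest transcript, to 2.98 per base of coding sequence and to 1.11 in undivided fragments. The exception turned with the length used, because the annotated exons of *Cebpd* cover 3746 bases but its coding sequence only 804. Per base of coding sequence, *Cebpd* was 1.77 times *Cebpa*. The pair of *Cebpd* and *Myb* turned as well, from 2.15 to 0.889 per base of the longest transcript, since the exons of *Myb* cover 8933 bases and its longest transcript has 3693.

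The genes that these factors act on at each stage were set beside them. The 4 genes of primary granule proteins, made early, ran from 241 FPKM for *Ctsg* to 781 FPKM for *Elane*, with a median of 407 FPKM. The 6 genes of secondary and tertiary granules, made late, ran from 480 FPKM for *Mmp8* to 8470 FPKM for *Ngp*, with a median of 1725 FPKM, which is 4.24 times the former. The late granule list thus had the higher median, although *Elane* of the early list was above *Mmp8*, and all 10 genes stood above the level of every 1 of the 9 factors. All 6 markers of mature neutrophils, *Mmp8* and *Mmp9* of the late granule list among them, reached 1 FPKM, as did 46.8% of protein-coding genes. The neutrophil markers were also high, with a range from 109 FPKM for *Cxcr2* to 26677 FPKM for *S100a9*. So were those of eosinophils, with *Prg2* at 2766 FPKM, *Epx* at 216 FPKM and *Ccr3* at 13.2 FPKM. The part of either cell type in the level of *Cebpe* was not tested.

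Granulocyte and monocyte factors did not separate in the same way. The geometric mean of *Cebpa*, *Cebpe* and *Gfi1* was 43.0 FPKM and that of *Irf8* and *Klf4* was 32.8 FPKM, a ratio of 1.31 with a counting interval of 1.25 to 1.37. Granulocyte factors were higher in 3 of 6 pairs and lower in 3. *Cebpe* was 2.83 times *Irf8* (interval, 2.69 to 2.96) and 5.67 times *Klf4* (interval, 5.28 to 6.08). *Cebpa* was 1.64 times *Klf4* (interval, 1.52 to 1.78) but 0.820 of *Irf8* (interval, 0.775 to 0.868). *Gfi1* was below both, at 0.342 of *Irf8* (interval, 0.317 to 0.369) and 0.686 of *Klf4* (interval, 0.625 to 0.752). The ratio of the groups fell to 0.750 without *Cebpe* and to 0.926 without *Klf4*. It also fell below 1 with other gene lengths, to 0.951 per base of the longest transcript and 0.762 per base of coding sequence, so its direction depends on these choices. Per base of coding sequence *Cebpe* itself was at 0.750 of *Irf8*.

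**Figure D2:**
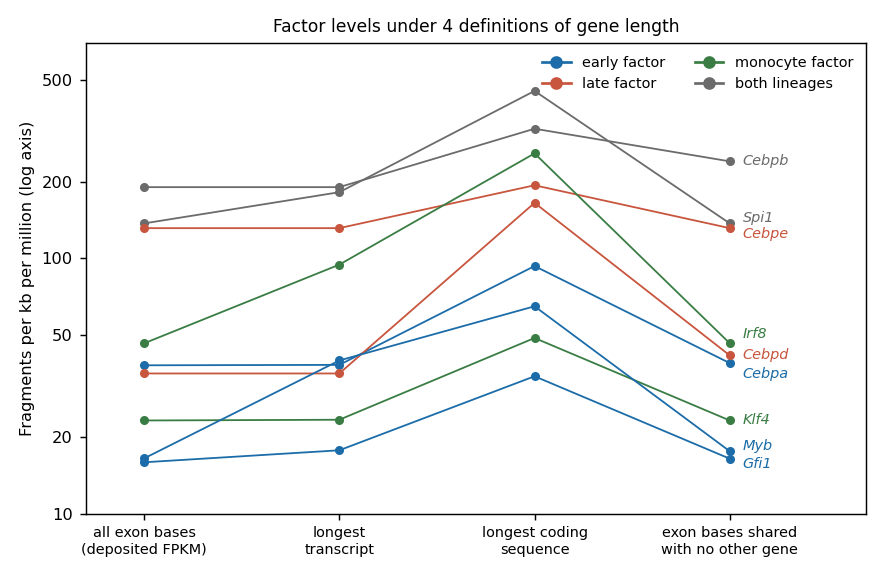
Level of each factor (fragments per kilobase scaled to library size, log axis) when the same recovered fragments are divided by all exon bases as in the deposited values, by the longest transcript, by the longest coding sequence, or by exon bases that no other gene shares. *Irf8* goes from 46.5 to 94.6 and 258 over the first 3, and *Gfi1* stays the lowest of the 9 under all 4.

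The length of a gene bears most on *Irf8*, *Myb*, *Spi1* and *Cebpd*, whose annotated exons extend far beyond the coding sequence. The exons of *Irf8* cover 7055 bases over 7 transcripts, and its longest transcript has 3469. Per base of that transcript *Irf8* had 94.6 and *Myb* 39.8 fragments per kilobase on the same scale, against 46.5 and 16.5 FPKM, so that *Myb* moved above *Cebpa*. Per base of coding sequence *Spi1* was the highest of the 9, at 453, ahead of *Cebpb* at 322 and *Irf8* at 258. *Gfi1* was the lowest in each case, and *Cebpb*, *Spi1*, *Cebpe* and *Irf8* were the 4 highest under every length tried and without any division by length.

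Some of these genes share exon bases with a gene on the other strand, and whether counting used the strand is not given in the sources used here. *Cebpb* shares 312 of its 1504 bases (20.7%) with *Tmem189*, which had 14.7 FPKM. *Cebpd* shares 562 of 3746 bases (15.0%) with *Spidr*, at 6.01 FPKM. *Myb* shares 559 of 8933 bases (6.26%) with the antisense gene *Gm26577*, at 1.02 FPKM. Smaller overlaps of 101 bases for *Gfi1* and 51 bases for *Cebpa* involve *A430072P03Rik*, at 2.09 FPKM, and *Gm45091*, at 0.503 FPKM. Each partner was lower than the factor it overlaps. Without the shared bases, and with the same fragments, *Cebpb* would be at 240 and *Cebpd* at 41.7, which places *Cebpd* above *Cebpa* at 38.9. *Spi1*, *Cebpe* and *Klf4* overlap no other annotated gene, and *Irf8* shares no exon base with *Gm20388*, the gene that spans it.

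Each factor was next set beside its family, whose proteins bind related sequences. In the C/EBP family, the 4 factors described here made up 93.5% of a summed 423 FPKM, with 45.0% from *Cebpb*, 31.1% from *Cebpe*, 9.03% from *Cebpa* and 8.39% from *Cebpd*. By coding length the share of *Cebpd* was 16.9% and that of *Cebpe* 19.8%. *Ddit3*, which encodes the stress-induced CHOP, had 15.3 FPKM and *Cebpg* 12.0 FPKM, both below the 4. *Spi1* was 2.22 times *Spib* (interval, 2.12 to 2.32), a gene of B cells and plasmacytoid dendritic cells that had 61.9 FPKM, and *Spic*, known from red pulp macrophages, had 2.11 FPKM. *Irf8* was the highest of the IRF genes with 22.5% of their summed FPKM, and 1.21 times *Irf5* (interval, 1.14 to 1.28), which had 38.5 FPKM. *Irf7* had 29.8, *Irf1* 26.4, *Irf3* 20.1, *Irf9* 19.9, *Irf4* 14.8 and *Irf2* 10.4 FPKM.

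In the other families a gene of another lineage or function was the highest. *Gfi1b*, which acts in red cell and platelet formation, had 23.9 FPKM, which was 1.35 to 1.66 times *Gfi1* by the exact counting interval. *Mybl2*, a gene of dividing cells, had 20.8 FPKM, 1.26 times *Myb* (interval, 1.18 to 1.35), and *Mybl1* had 0.563 FPKM. Per base of the longest transcript and per base of coding sequence, *Myb* was the highest of the 3. Of 17 KLF genes 12 reached 1 FPKM, as did 46.8% of protein-coding genes. *Klf4* was at position 5 with 5.04% of the summed FPKM of the 17. Per base of coding sequence *Klf6* was the highest instead. In FPKM, the erythroid factor gene *Klf1* had 141 FPKM, 6.07 times *Klf4* (interval, 5.67 to 6.50), *Klf2* had 138 FPKM, *Klf6* 59.1 FPKM and *Klf13* 30.8 FPKM. *Klf14* and *Klf17* had no fragments, and the 3 that a count of 0 leaves possible would be 0.0622 FPKM for *Klf14* and 0.0792 FPKM for *Klf17*.

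**Figure D3:**
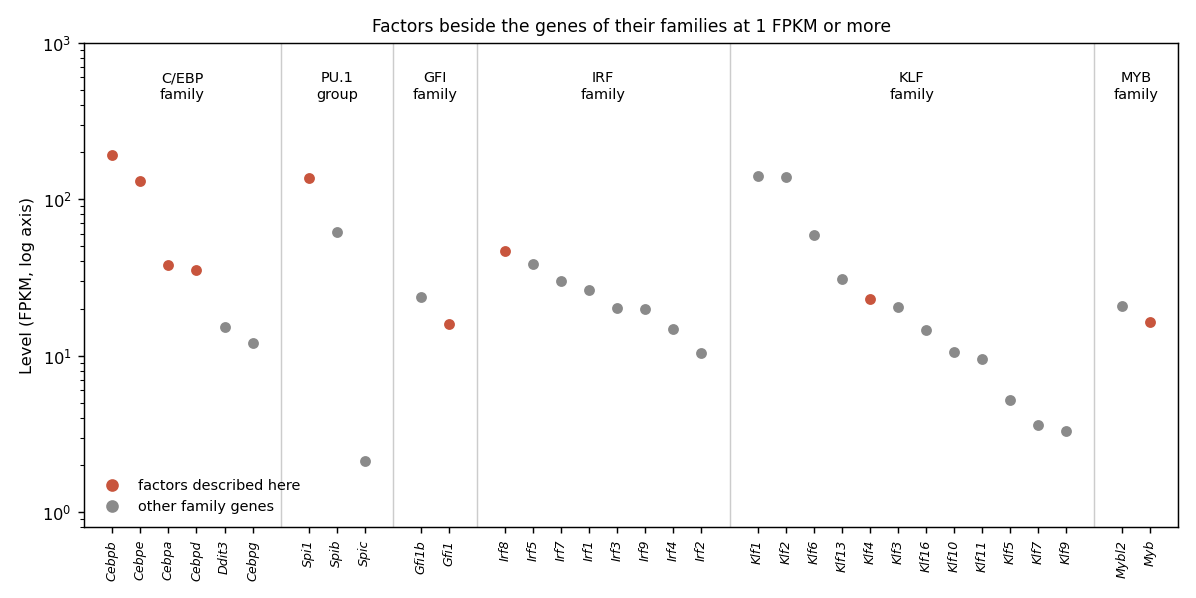
FPKM (log axis) of the 9 factors (red) and of the other genes of their families at 1 FPKM or more (grey), ordered by level within each family. A red point is the highest in the C/EBP family, the PU.1 group and the IRF family, while *Gfi1b*, *Klf1* and *Mybl2* lead the others.

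Transcripts of genes whose products work with these factors were present as well. All 6 genes listed as partners of GFI1 in repression reached 1 FPKM, as did 46.8% of protein-coding genes. The 6 ran from 8.82 FPKM for *Zbtb17* to 41.6 FPKM for *Hdac1*. *Kdm1a*, which encodes the histone demethylase LSD1 that GFI1 recruits, had 10.9 FPKM and its partner *Rcor1* 20.8 FPKM. In FPKM these lie on either side of *Gfi1*, but both had more fragments, 891 and 1868 against 800. Of the coactivators of MYB, *Ep300* had 16.7 FPKM and *Crebbp* 5.32 FPKM. *Ep300* was close to *Myb* in FPKM but not in fragments, with 3759 against 2322. Genes listed as targets of GFI1 repression reached 1 FPKM too, with *Id2* at 27.4, *Id1* at 17.4 and *Csf1* at 4.52 FPKM. Of 4 genes listed as targets of MYB, *Ccnb1* had 40.3, *Myc* 16.2, *Kit* 7.17 and *Bcl2* 3.12 FPKM. Of 5 receptor genes under PU.1 and C/EBP control, 4 were above *Gfi1*, *Myb* and *Klf4*, with *Csf3r*, the G-CSF receptor of granulocytes, at 212 FPKM, *Csf2ra* at 127 FPKM, *Csf1r*, the M-CSF receptor of monocytes, at 51.5 FPKM, *Csf2rb* at 34.9 FPKM and *Il6ra* at 18.9 FPKM.

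Several of the factors are used by more than 1 lineage, and markers of those lineages were present in the library. All 7 monocyte markers reached 1 FPKM, as did 46.8% of protein-coding genes. The 7 ran from 17.6 FPKM for *Cx3cr1* to 199 FPKM for *Ctss*, with a sum of 456 FPKM. All 6 B cell markers reached 1 FPKM too, from 4.53 FPKM for *Ebf1* to 173 FPKM for *Cd79a*, with a sum of 378 FPKM. Dendritic cell markers were lower, with 4 of 5 at 1 FPKM or more, a sum of 32.1 FPKM and *Xcr1* at 0.142 FPKM. *Irf8*, *Spi1*, *Spib* and *Irf4* are expressed in some or all of these cells, and the part of each in their levels was not tested. All 6 macrophage markers ran from 7.37 to 50.3 FPKM. All 6 erythroid markers were present, from 49.9 FPKM for *Epor* to 1189 FPKM for *Alas2*, with *Gata1*, whose product opposes PU.1, at 50.3 FPKM against 137 FPKM for *Spi1*. Their part in the levels of *Myb*, *Gfi1b* and *Klf1* was not tested. Basophil and mast cell markers ran from 4.62 to 168 FPKM. Markers of T and NK cells had a median of 5.59 FPKM and those of megakaryocytes one of 16.2 FPKM, with *Gp1bb* listed at 0.

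The labels name a gate and no single progenitor stage. In the study's gating, that gate holds GMP together with other progenitors, and markers of GMP were looked at. All 6 GMP markers, of which 4 are the primary granule genes above, reached 1 FPKM, as did 46.8% of protein-coding genes. The median of the 6 was 310.0 FPKM, although *Cd34* had only 5.22 FPKM. *Kit*, the gene of the sorting antigen, was at 7.17 FPKM, below all 9 factors in FPKM. In undivided fragments *Kit*, with 1008 over 8911 exon bases, was above *Gfi1* only, which had 800. The next lowest factor, *Klf4*, had 1116. Levels of *Kit* per base of transcript or coding sequence are not given. None of the 5 markers of hematopoietic stem cells (HSC) reached 1 FPKM, and their median was 0.525 FPKM. The study's gating places HSC among Sca1+ cells, outside the labelled gate. The levels of the 9 factors are thus those of a library that also held transcripts of late granule, eosinophil, erythroid, monocyte and B cell genes.

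**Figure D4:**
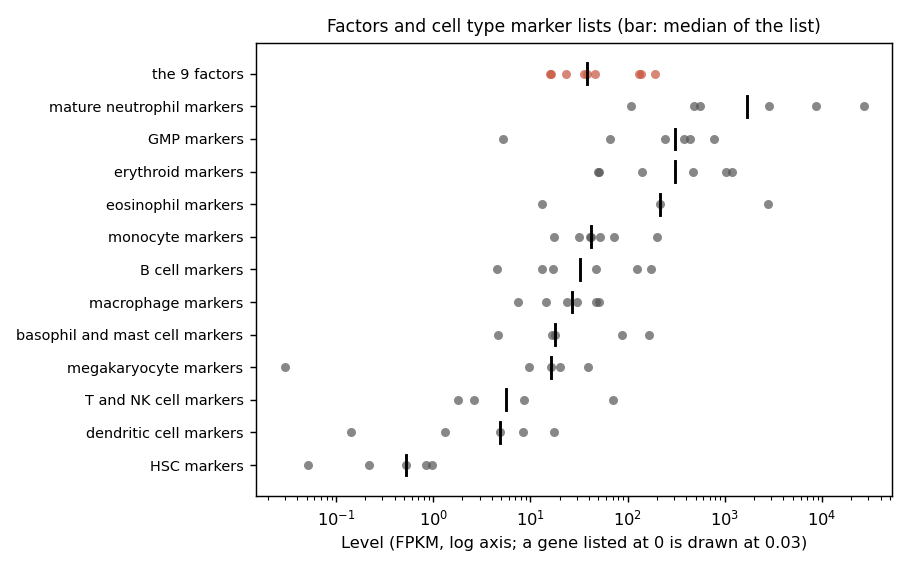
FPKM (log axis) of the 9 factors (red) and of the genes of 12 marker lists (grey, ordered by median), with a bar at the median of each list. The medians run from 1696 FPKM for mature neutrophil markers down to 0.525 FPKM for HSC markers. The factors' median of 38.1 FPKM lies between the 42.2 FPKM of monocyte markers and the 32.2 FPKM of B cell markers.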

How the data were processed

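The authors sequenced total RNA of sorted c-kit+ BM cells. The submitters' processing notes name HISAT2 2.0.5, featureCounts 1.5.0-p3 and the build mm10. The deposited values are FPKM, 1 per gene in the Ctrl library, and strandedness and annotation are not given in the sources used here. FPKM depends on the gene length chosen and on the share of fragments taken by the most abundant genes.

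Symbols, coordinates and lengths (all bases covered by any exon) came from GENCODE M21 on GRCm38, which holds 54495 of 54532 gene identifiers. FPKM times length gave whole multiples of 1 step, within 0.01, for 96.4% of genes above 0 and for all 9 factors. These were taken as fragments, and the step corresponds to a total of 15783891. Recovered fragments sum to more than that total, to 15899824 over genes with a whole multiple and 17113323 over all genes, and the cause was not tested. On simulated fragments of this library, 100% of 19284 genes with a right length were recovered. The simulated FPKM were exact but for rounding, so this checks the calculation only, and not the lengths or the excess in the sum. Single levels have 95% Wilson intervals, ratios of 2 genes exact intervals (Clopper-Pearson), and ratios of geometric means intervals from the variance of log fragments. With 1 library no test was possible.

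The factors and gene lists were chosen with earlier results of these data known. Named are the 9 factors, their families (of KLF the 5 highest and those at 0), and of other lists chiefly the highest and lowest genes and those at 0, with further genes of the lists added after their values were seen. Some genes of the lists are not reported here. Calculations were run in Python 3.11.15 (numpy 2.4.6; pandas 2.3.3), intervals came from scipy 1.17.1, and plots from matplotlib 3.10.9.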

Additional observations from a re-analysis of the deposited data

How the results depend on the processing

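No paired analysis was possible because only 1 library was analysed. All 9 factors reached the minimum at 0.1 FPKM, at 10 FPKM and at 10 recovered fragments. Their median level, 38.1 FPKM, was 41.6 without the 10 most abundant genes and 38.9 without mitochondrially encoded genes, factors of 1.09 and 1.02 that are common to all genes, and 89.0 as TPM. It was 39.8 per base of the longest transcript, 165 per base of coding sequence and 147 scaled to library size with no division by length. The ratio of early to late factors, 0.316, stayed below 1 under all 12 alternatives. It was 0.237 without *Cebpa*, 0.367 without *Gfi1*, 0.361 without *Myb*, 0.608 without *Cebpe*, 0.164 without *Cebpd*, 0.423 for sums, 0.197 for medians, 0.617 for undivided fragments, 0.440 for the longest transcript and 0.332 for coding sequence. The ratio of granulocyte to monocyte factors, 1.31, fell below 1 under 6 of 14 alternatives. These were leaving out *Cebpe* (0.750) or *Klf4* (0.926), adding *Spi1* and *Cebpb* to the monocyte group (0.591), undivided fragments (0.617), the longest transcript (0.951) and coding sequence (0.762). It was 1.39 without *Cebpa*, 2.16 without *Gfi1*, 1.86 without *Irf8*, 1.25 with *Cebpd* added to the granulocyte group, 2.66 for sums and 1.09 for medians. A pseudocount of 1 FPKM gave 0.326 and 1.31 for the pair of ratios. Exon bases shared with no other gene, an alternative chosen after seeing the data, gave a median of 41.7 and ratios of 0.302 and 1.33. Of the 6 families, 3 were led by 1 of the 9 factors in FPKM and among genes at 1 FPKM or more, 4 by the longest transcript or coding sequence, and 5 in undivided fragments, where *Gfi1* and *Myb* lead theirs. These changes follow from the lengths and genes used. More fragments would narrow the counting intervals but would not give the spread between mice.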

Other observations

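The 20 other regulators of granulocytes and monocytes all reached 1 FPKM in the Ctrl library, as did 46.8% of protein-coding genes. The median of the 20 was 16.8 FPKM, close to the level of *Myb* in FPKM. *Junb*, an AP-1 subunit, had 306 FPKM from 11117 fragments and was 1.61 times *Cebpb* (exact 95% counting interval, 1.55 to 1.67), which makes it the highest of the 60 regulators compared. *Jun* had 85.2 FPKM and the early growth response gene *Egr1* 50.7 FPKM, both above *Irf8* in FPKM, while *Egr2* had 1.51 FPKM. In undivided fragments *Irf8*, with 5178, was above *Jun*, with 4291, and *Egr1*, with 3588. *Cbfb*, which encodes the partner of RUNX proteins, had 40.4 FPKM and *Runx1* itself 5.91 FPKM. *Nr4a1*, needed for one class of monocytes, had 26.3 FPKM, and the macrophage factor gene *Maf* had 2.04 FPKM. *Batf3*, a factor of conventional dendritic cells, was the lowest of the 20 at 1.23 FPKM, as *Xcr1* was among the dendritic cell markers.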
